A study of Mus musculus with 20 samples.

Results

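Genomic imprinting was followed across 10 mouse pluripotent cell lines through 46 imprinted genes that lie outside the Dlk1-Dio3 locus. The genes were chosen by name. In at least some tissues, 20 are known to be expressed mainly from the paternal copy and 25 mainly from the maternal copy. Gnas is expressed from either copy depending on the isoform. Whether these classes hold in the cells used here was not tested. The arrays held 81 probes named for them. A gene was kept when at least 1 of its probes was well above background on 4 or more of the 20 arrays, which held for 43 of the 46 genes, among 27161 genes kept on the whole array. Of these 43, 19 are paternally expressed, 23 maternally expressed, and the last is Gnas. Slc22a2, Zim1 and Rasgrf1 were not kept, with no probe of theirs above background on more than 0, 2 and 3 arrays. Just inside the filter stood Slc22a3 with 4 arrays and Calcr and Klf14 with 7 each, and 30 genes were above background on all 20 arrays.

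Of the lines, 7 had been reprogrammed (induced pluripotent stem cells, iPSC) and 3 came from embryos (embryonic stem cells, ESC), and each was hybridized to 2 one-colour Agilent arrays. The labels grade the iPSC lines without saying how. The high grade went to Nanog-GFP SNEL#2 and to Oct4-GFP SNEL#1, the good grade to BC_2 OSKM and to Nanog-GFP SNEL#3, and the poor grade to Nanog-GFP OSKM#2, to Oct4-GFP OSKM#2 and to KH2_OSKM. The ESC lines were KH2 ESCs, then Nanog-GFP ESCs, then Oct4-GFP ESCs. SNEL stands for the reprogramming factors Sall4, Nanog, Esrrb and Lin28, and OSKM for Oct4, Sox2, Klf4 and Myc. All cells were untreated and grew in 2i medium, a serum-free medium with inhibitors of MEK and GSK3, without feeder cells. Each line is a single line, the genotype is given only through its name, and nothing says that the 2 arrays of a line were separate cultures, so the line was taken as the replicate.

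An imprinted gene is expressed mainly from the copy inherited from 1 parent, in at least some tissues. Methylation set in the egg or sperm at an imprinting control region marks the copies, and many imprinted genes sit in clusters that share such a region. Many paternally expressed genes promote fetal growth and many maternally expressed ones restrain it. Cultured stem cells are known to gain or lose such marks, after which a gene can be transcribed from both copies or from neither. The arrays measured total transcript and cannot tell the copies apart, and in bulk RNA fewer cells that express a gene cannot be told apart from less RNA per cell.

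A level is the log2 of a probe's signal over its array's 75th percentile, averaged over the line's 2 arrays. Levels are compared between lines for 1 gene and never between genes. The share of probes well above background was 48.87% to 77.21% by array, and having only 20 arrays limits the precision. Arrays of the same line correlated at 0.977 or more, with the lowest value in KH2_OSKM. The 8 pluripotency markers averaged between 5.80 and 6.35 in every line. The 9 fibroblast markers (such as Col1a1 and Postn) had a mean level of −3.24 and −1.09 in the high lines, −3.52 and −4.53 in the good lines, −4.64, −4.32 and −3.67 in the poor lines and −0.73, −1.20 and −1.58 in the ESC lines, in the order of the lines given above. They were therefore lower in 6 of the 7 iPSC lines than in any ESC line.

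Single imprinted genes differed widely between lines, and mostly not along the grades. In limma's F test on the 20 arrays, 35 of the 43 genes differed between lines by more than the 2 arrays of a line did (adjusted p under 0.05), against 61.6% of all genes. This test takes the 2 arrays of a line as replicates, so its p-values may measure technical spread only. The 8 genes that did not pass were Slc22a3, Igf2, Calcr, Klf14, Blcap, Kcnk9, Airn and Peg10. The SD over the 10 lines had a median of 0.54 for the imprinted genes and 0.36 for all genes, while the SD between the arrays of a line had medians of 0.14 and 0.16. An SD over lines above 1 was found for 10 of the 43 genes (23.3%), against 6.79% of all genes. That count was 3 of 43 with normexp background correction, where 1.64% of all genes were above 1, and 4 of 43 in the authors' value table, where 2.44% were. The 10 genes, in the order of their SD, were Mest (4.40), Slc38a4 (1.67), H19 (1.40), Nnat (1.38), Asb4 (1.22), Slc22a3 (1.20), Peg12 (1.18), Kcnq1 (1.12), Sgce (1.08) and Inpp5f (1.06). Slc22a3, a transporter of organic cations, was above background on 4 arrays, had an SD of 2.11 between arrays of a line, and did not pass the F test.

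**Figure D1:**
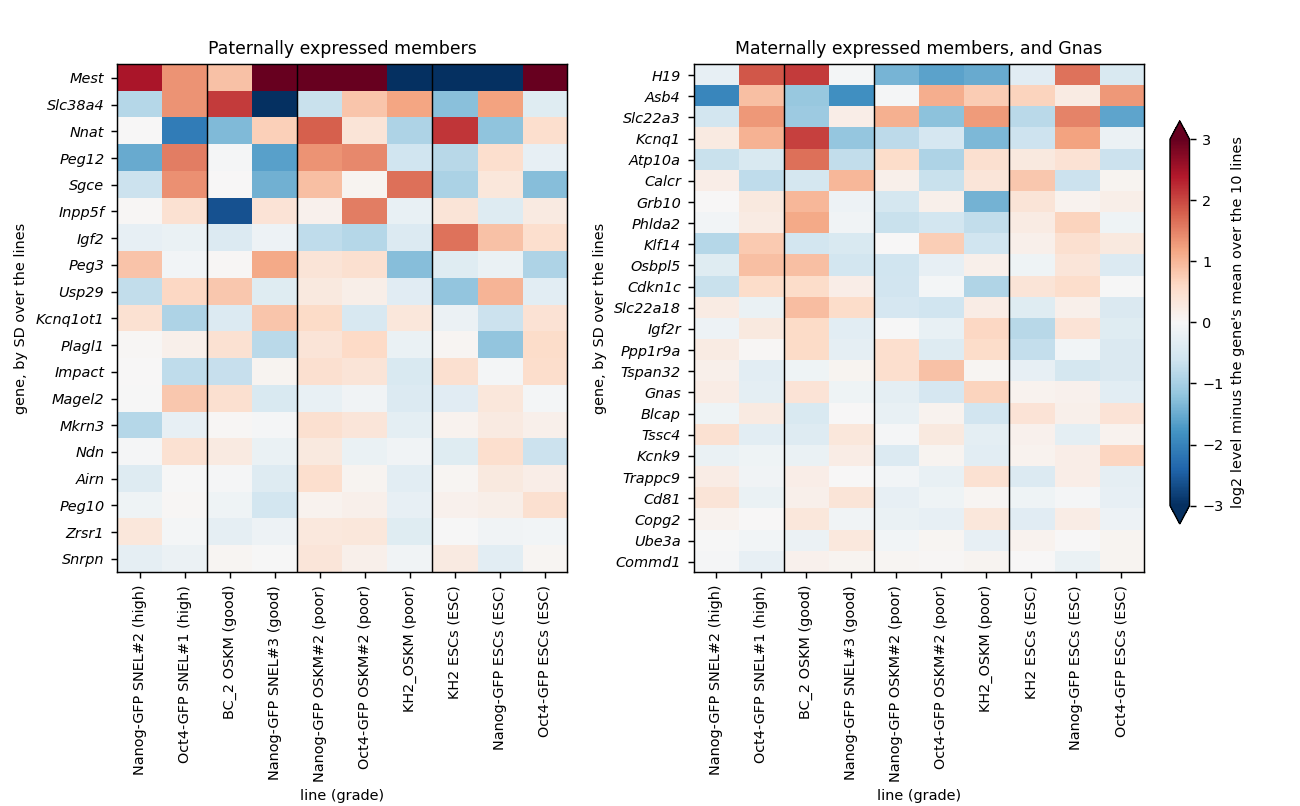
Log2 level of each of the 43 imprinted genes in each line minus its mean over the 10 lines, with lines in columns by grade and genes in rows by their SD over lines, paternally expressed genes on the left. Colours stop at 3 units either way. Mest has the widest range (11.06), and the 3 poor lines are the lowest of all lines for H19.

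Mest, a paternally expressed gene for a hydrolase-like protein of mesoderm, was either abundant or close to background. Its level was 2.36 in Nanog-GFP SNEL#2 and 1.24 in Oct4-GFP SNEL#1 among the high lines, and 0.77 in BC_2 OSKM and 3.15 in Nanog-GFP SNEL#3 among the good lines. Among the poor lines it was 3.80 in Nanog-GFP OSKM#2, 3.38 in Oct4-GFP OSKM#2 and −6.77 in KH2_OSKM, and among the ESC lines −4.74 in KH2 ESCs, −7.26 in Nanog-GFP ESCs and 3.09 in Oct4-GFP ESCs. Thus 3 lines of 2 groups were low, both KH2 lines among them, and the Nanog-GFP ESCs were low while the 3 Nanog-GFP iPSC lines stood at 2.36 to 3.80. With its brightest probe, used here, Mest was not well above background on either array of KH2_OSKM or Nanog-GFP ESCs, which put it at least 504-fold and at least 952-fold lower there than in Nanog-GFP OSKM#2. Only 0.00736% of all genes had a larger SD over the lines. Its difference between lines passed the F test (adjusted p = 7.59e-11), but no comparison of group means did: all iPSC minus ESC was 4.10 ± 2.82 (SE, 7 and 3 lines, limma adjusted p = 0.786) and good and high minus poor 1.74 ± 3.12 (4 and 3 lines, adjusted p = 0.982).

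The 3 Mest probes gave the same picture. The low lines were low with each probe, although A_55_P2090025 was well above background on 1 array of KH2_OSKM (−3.78, against −7.20 on the other), and the order of the other 7 lines was the same with all 3. The probe from within the transcript, A_55_P2151868 at chr6:30692160-30692219 of mm9 on the plus strand, is shown because it lies about the middle of the gene, away from the end where the other probes lie:
Mest probe A_55_P2151868: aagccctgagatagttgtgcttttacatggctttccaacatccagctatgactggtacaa
Copg2, a coat protein subunit of vesicle transport, is encoded on the other strand and its gene overlaps that of Mest by 913 bases at their ends. Its level stayed between 3.40 and 4.08 in all lines, also in the 3 lines low in Mest. Klf14, a maternally expressed transcription factor of the same cluster, was above background on only 7 arrays and ranged from −6.81 to −5.16.

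**Figure D2:**
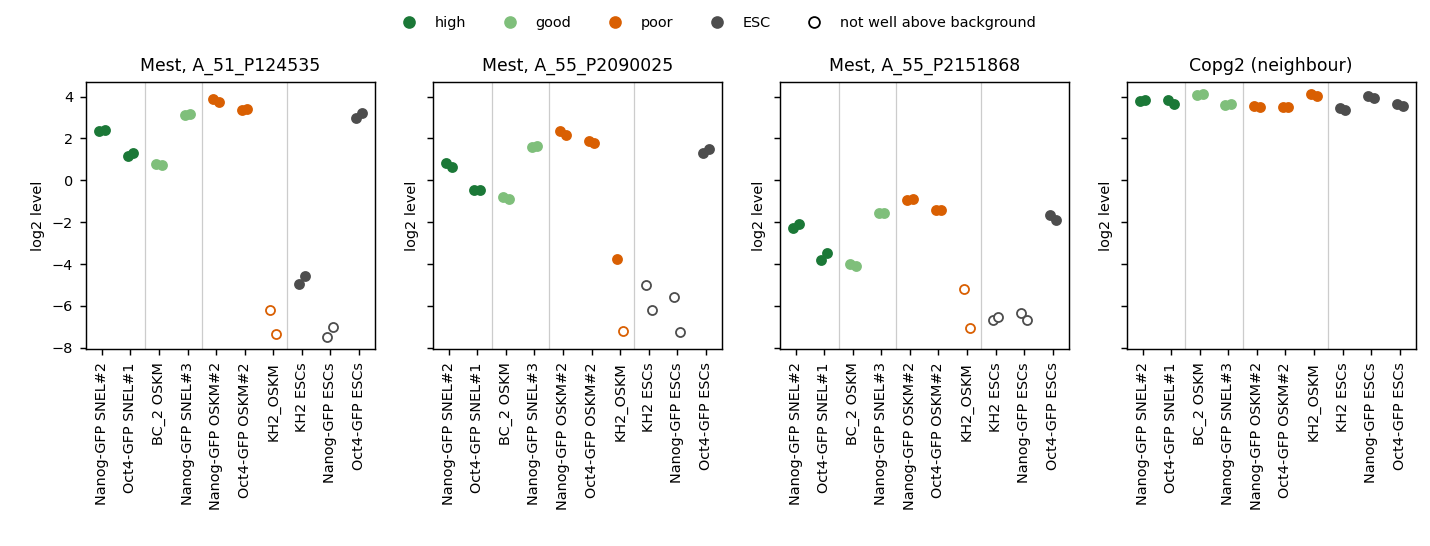
Log2 level on each array (2 points per line) for the 3 Mest probes and for Copg2, with lines by grade; open points were not well above background. KH2_OSKM, KH2 ESCs and Nanog-GFP ESCs lie low for all 3 Mest probes, while the line means of Copg2 stay between 3.40 and 4.08.

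RefSeq promoter windows (GRCm38.p6, 250 bases before to 50 after a start) were found for 37 of the 46 genes. They were searched for TGCCGC on both strands, the core of the motif at which the zinc finger protein ZFP57 binds methylated DNA and keeps imprints. It was in 13 of 57 windows of the imprinted genes (22.8%), against 11.6% of all 32851 windows. The windows of the imprinted genes also held more CpG, with a median of 15 against 7. The motif stood in 22.2% of the windows of paternally expressed genes and in 26.9% of those of maternally expressed genes. The windows of Mest and Nnat are shown since these 2 paternally expressed genes varied widely between lines and hold the motif, in capitals, on the strand opposite to the gene. Mest has an upstream start without the motif. Its CpG-rich start, with 2 matches, entered the counts as 2 nearly identical windows, so the windows are not independent. Nnat has 1 match, and 1 window per start is shown:
Mest upstream start, chr6:30733256-30733555, plus strand: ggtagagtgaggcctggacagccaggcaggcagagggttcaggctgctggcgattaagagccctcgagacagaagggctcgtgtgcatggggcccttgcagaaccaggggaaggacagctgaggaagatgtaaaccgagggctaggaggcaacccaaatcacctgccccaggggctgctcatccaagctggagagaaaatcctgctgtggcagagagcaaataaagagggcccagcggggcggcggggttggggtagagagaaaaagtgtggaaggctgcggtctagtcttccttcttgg
Mest main start, chr6:30737800-30738099, plus strand: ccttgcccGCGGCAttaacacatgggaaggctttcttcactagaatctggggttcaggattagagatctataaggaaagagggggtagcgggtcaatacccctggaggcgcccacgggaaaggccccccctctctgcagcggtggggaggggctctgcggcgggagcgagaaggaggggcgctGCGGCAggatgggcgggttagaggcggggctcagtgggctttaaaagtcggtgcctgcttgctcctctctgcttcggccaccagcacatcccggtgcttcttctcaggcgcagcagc
Nnat, chr2:157559828-157560127, plus strand: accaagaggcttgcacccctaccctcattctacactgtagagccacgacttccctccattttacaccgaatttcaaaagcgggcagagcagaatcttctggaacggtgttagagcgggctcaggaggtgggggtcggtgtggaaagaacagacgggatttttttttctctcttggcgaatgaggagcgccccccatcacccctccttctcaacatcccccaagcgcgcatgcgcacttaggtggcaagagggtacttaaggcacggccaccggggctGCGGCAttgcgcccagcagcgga
Peg12, Slc38a4, Inpp5f, Asb4 and Slc22a3, which also varied, had no match in their windows. No window was found for H19, Kcnq1 and Sgce. Commd1, Snrpn and Copg2, which varied little (SD over lines 0.13, 0.22 and 0.24), held a match in a window. Whether the motif goes with variation between lines was not tested.

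H19 and Igf2 share an imprinting control region and enhancers. H19 is a noncoding RNA made from the maternal copy, and Igf2 a growth factor of the embryo made from the paternal one. H19 was lowest in the 3 poor lines. It stood at −2.13 in Nanog-GFP SNEL#2 and −0.04 in Oct4-GFP SNEL#1, the high lines, and at 0.21 and −1.95 in the good lines BC_2 OSKM and Nanog-GFP SNEL#3. In the poor lines it was −3.28 in Nanog-GFP OSKM#2, −3.49 in Oct4-GFP OSKM#2 and −3.41 in KH2_OSKM. In the ESC lines it was −2.24 in KH2 ESCs, −0.26 in Nanog-GFP ESCs and −2.35 in Oct4-GFP ESCs. The poor lines lay within 0.21 of each other and overlapped neither the other iPSC lines nor the ESC lines. The good and high lines exceeded the poor lines by 2.42 ± 0.74 (SE, 4 and 3 lines), which did not pass limma's threshold (adjusted p = 0.925), and poor minus ESC was −1.78 ± 0.79 (3 lines each, adjusted p = 0.528). The first difference was 2.51 within slide 1 and 2.04 within slide 2. Poor minus ESC was −1.10 without Nanog-GFP ESCs. The fibroblast markers were also low in the poor lines, but as low in Nanog-GFP SNEL#3, whose H19 was −1.95, and their part in the difference was not tested.

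H19 had 7 probes above background on 4 or more arrays. Good and high minus poor was positive with 6 of them, by 1.32 to 2.50, and −0.19 with A_55_P1961125. Poor minus ESC was negative with the same 6, by sizes that included −0.40 and −0.30 for a pair of dim probes, and 0.98 with A_55_P1961125, and the mean of all probes gave −0.81. The brightest probe, used above, and the discordant one, above background on 11 arrays, are shown because they differ in direction. They lie at chr7:149761492-149761551 and chr7:149762417-149762476 of mm9 on the minus strand:
H19 probe A_55_P1961127: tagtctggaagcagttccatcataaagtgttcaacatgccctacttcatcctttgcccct
H19 probe A_55_P1961125: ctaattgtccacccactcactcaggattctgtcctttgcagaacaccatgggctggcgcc

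By line means, Igf2 was lower in each of the 7 iPSC lines than in each of the 3 ESC lines. Its SD was 0.91 between arrays of a line and 0.78 over lines, and it did not pass the F test (adjusted p = 0.294). It stood at −5.42 and −5.36 in the high lines, −5.59 and −5.32 in the good lines, −5.92, −6.02 and −5.58 in the poor lines, and −3.53, −4.28 and −4.67 in the ESC lines, highest in KH2 ESCs. It was well above background on 4 of 14 iPSC arrays and on 6 of 6 ESC arrays. All iPSC minus ESC was −1.44 ± 0.24 (SE, 7 and 3 lines, adjusted p = 0.226), with −1.23 ± 0.32 for the high lines (2 lines, adjusted p = 0.830), −1.30 ± 0.32 for the good lines (2 lines, adjusted p = 0.566) and −1.68 ± 0.29 for the poor lines (3 lines, adjusted p = 0.203). The size depended on the processing: all iPSC minus ESC was −0.30 with normexp background correction and −0.61 in the authors' value table. It was −2.76 within slide 1, where KH2 ESCs are the only ESC line, but −0.48 within slide 2, where the 6 iPSC arrays ran from −5.12 to −4.67 and the ESC arrays were −4.06 and −4.84, so that they overlap. The fibroblast markers, of which 8 of 9 were lower in iPSC lines, moved with Igf2, except that Oct4-GFP SNEL#1 had a marker mean of −1.09, above that of 2 of the 3 ESC lines, with Igf2 at −5.36. Their part in it was not tested.

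**Figure D3:**
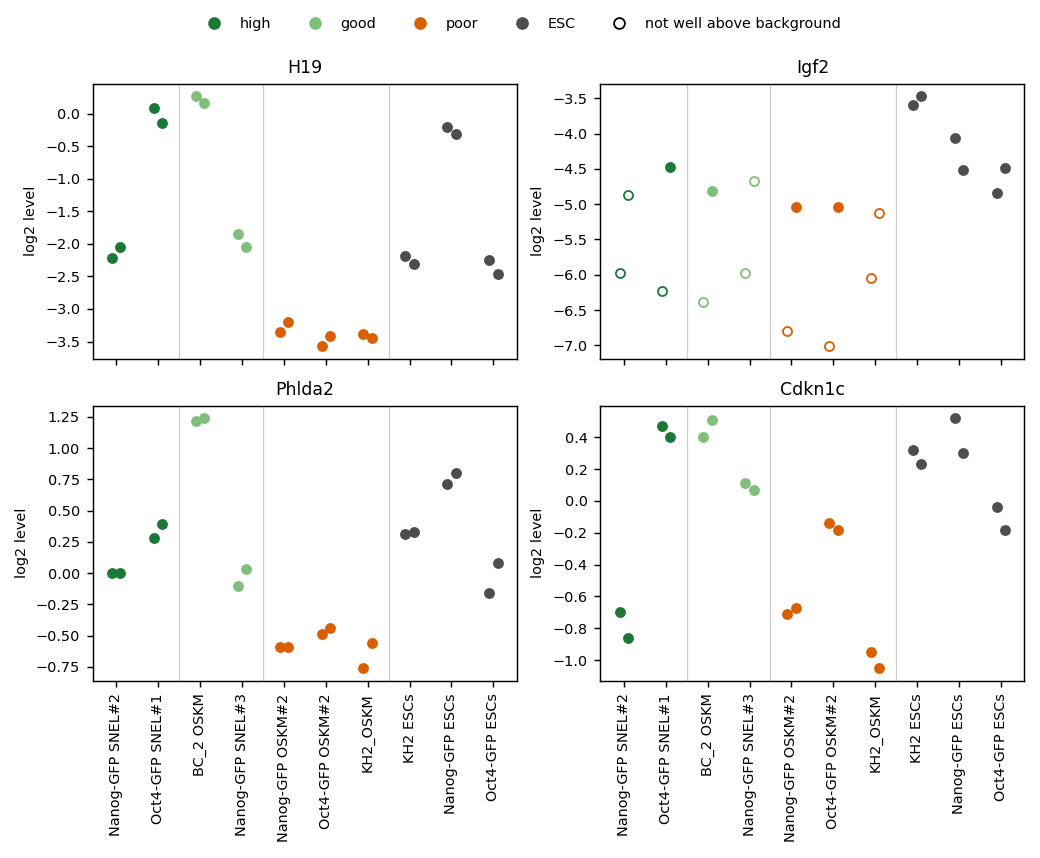
Log2 level on each array (2 points per line) for H19, Igf2, Phlda2 and Cdkn1c, with lines by grade; open points were not well above background. H19 (−3.49 to −3.28) and Phlda2 (−0.66 to −0.47) are lowest in the poor lines, and Igf2 lines average −6.02 to −5.32 in iPSC and −4.67 to −3.53 in ESC lines.

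In the Kcnq1 cluster next to H19, the noncoding RNA Kcnq1ot1 is transcribed from the paternal copy and silences its neighbours there. Phlda2 and Cdkn1c, maternally expressed restrainers of growth, had their lowest group means in the poor lines. Phlda2, which limits placental growth, was 0.00 and 0.34 in the high lines, 1.23 and −0.03 in the good lines, −0.59, −0.47 and −0.66 in the poor lines, and 0.32, 0.75 and −0.04 in the ESC lines. The poor lines overlapped with no other line, but the differences of 0.96 ± 0.31 (good and high minus poor, adjusted p = 0.925) and −0.92 ± 0.34 (poor minus ESC, adjusted p = 0.420) did not pass. Cdkn1c, an inhibitor of cyclin-dependent kinases, averaged −0.62 ± 0.43 in the poor lines and 0.19 ± 0.27 in the ESC lines (SD, n = 3 each), a difference of −0.81 ± 0.35 (SE, adjusted p = 0.513). Its poor lines stood at −0.69, −0.16 and −1, of which Oct4-GFP OSKM#2 (−0.16) was close to Oct4-GFP ESCs (−0.11). Cdkn1c was also low (−0.78) in the high line Nanog-GFP SNEL#2. Kcnq1ot1 itself ran from −2.10 in Oct4-GFP SNEL#1 to −0.33 in Nanog-GFP SNEL#3, with poor minus ESC at 0.28 ± 0.51 (adjusted p = 0.950).

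The other maternally expressed genes of this cluster did not follow 1 pattern. Kcnq1, a potassium channel, was highest in BC_2 OSKM (−2.49), Nanog-GFP ESCs (−3.33) and Oct4-GFP SNEL#1 (−3.49), which were also the 3 highest lines for H19, and ran down to −5.89 in KH2_OSKM. It was above background on 14 arrays, and the 2 arrays of KH2 ESCs gave −3.79 and −6.54. Slc22a18, a transporter, ran from 1.41 to 2.94 and was highest in BC_2 OSKM. Tspan32, a tetraspanin, averaged 0.53 ± 0.42 in the poor lines and −0.35 ± 0.14 in the ESC lines (SD, n = 3 each), without overlap but not past the threshold (0.88 ± 0.24, SE, adjusted p = 0.263). Osbpl5 ran from −1.53 to −0.03, Tssc4 from 3.36 to 4.21, and Cd81, a tetraspanin of the cell surface, from 6.48 to 7.10.

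Peg12 and Slc38a4 were each low in particular SNEL lines. Peg12, a paternally expressed gene of the Snrpn cluster, stood at −2.44 in Nanog-GFP SNEL#2 and −2.56 in Nanog-GFP SNEL#3, against 0.60 in the third SNEL line, Oct4-GFP SNEL#1. It was −0.97 in BC_2 OSKM, 0.41, 0.51 and −1.54 in the poor lines, KH2_OSKM being the last, and −1.76, −0.43 and −1.19 in the ESC lines. The 2 low lines share their factors and their reporter but not their grade. A second, dimmer Peg12 probe was also lowest in them (−4.84 and −4.36), with −4.32 to −3.42 in the other lines. Slc38a4, a transporter of amino acids, was −1.24 in Nanog-GFP SNEL#3 and 4.36 in BC_2 OSKM, the 2 lines graded good. It was 1.42 and 3.61 in the high lines, 1.59, 3.10 and 3.46 in the poor lines and 1.01, 3.48 and 1.90 in the ESC lines. The 2 arrays of a line differed little for both genes, with SDs of 0.10 and 0.07. SNEL minus OSKM was −1.07 ± 0.83 for Peg12 (SE, adjusted p = 0.675) and −1.86 ± 1.11 for Slc38a4 (adjusted p = 0.607).

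The rest of the Snrpn cluster varied less than Peg12. Snrpn, which encodes a splicing protein, ran from 2.65 to 3.32, and Ube3a, a ubiquitin ligase expressed from the maternal copy in neurons, from 0.28 to 0.84. Ndn, Magel2 and Mkrn3, which are paternally expressed, spanned 1.13, 1.26 and 1.34. Atp10a, a phospholipid transporter, was highest in BC_2 OSKM at −2.02 and lay between −4.59 and −3.13 in the other lines.

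Nnat, Inpp5f and Sgce, also listed as paternally expressed, gave 3 further orders of the lines. Whether the probe of Inpp5f reads an imprinted transcript of that gene was not tested. Nnat, a small membrane protein of developing brain whose gene lies within an intron of Blcap, was −3.53 and −5.63 in the high lines, −4.87 and −2.81 in the good lines, −1.74, −3.14 and −4.45 in the poor lines, and −1.40, −4.75 and −3.03 in the ESC lines. With this probe the arrays of KH2_OSKM disagreed (−3.10 and −5.81) and only the first was above background, whereas a second Nnat probe gave −4.92 and −4.82 there, both above background. Blcap stayed between 1.27 and 2.27. Inpp5f, a phosphoinositide phosphatase, was −5.40 in BC_2 OSKM, with 1 of its 2 arrays above background, and lay between −3.16 and −1.24 in the other 9 lines. Sgce, a sarcoglycan of the Peg10 cluster, was highest in KH2_OSKM (0.20) and Oct4-GFP SNEL#1 (−0.08) and lowest in Nanog-GFP SNEL#3 (−2.88), Oct4-GFP ESCs (−2.71) and KH2 ESCs (−2.40). Poor minus ESC for Sgce was 1.5 ± 0.70 (SE, adjusted p = 0.557). Peg10, which derives from a retrotransposon and shares the promoter region of Sgce, was above background on 13 arrays and spanned 1.02 (F test adjusted p = 0.874).

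**Figure D4:**
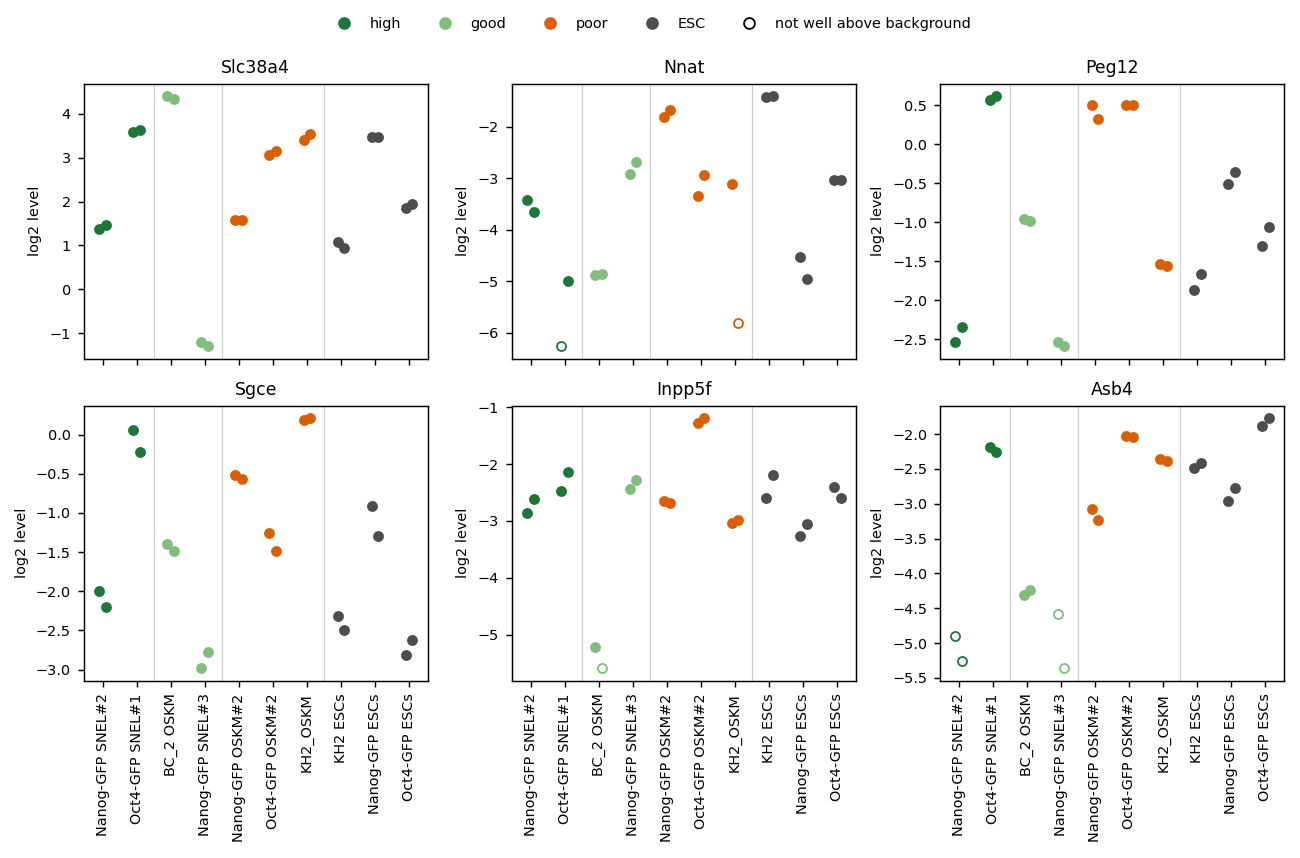
Log2 level on each array (2 points per line) for Slc38a4, Nnat, Peg12, Sgce, Inpp5f and Asb4, with lines by grade; open points were not well above background. The lines low for 1 gene differ by gene: Nanog-GFP SNEL#3 for Slc38a4 (−1.24), both Nanog-GFP SNEL lines for Peg12 (−2.44 and −2.56) and BC_2 OSKM for Inpp5f (−5.40).

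Asb4, a maternally expressed gene of the same cluster whose protein joins ubiquitin ligases, was low in 3 iPSC lines. It stood at −5.08 and −2.22 in the high lines, −4.27 and −4.97 in the good lines, −3.15, −2.03 and −2.37 in the poor lines, and −2.45, −2.87 and −1.83 in the ESC lines. Good minus ESC was −2.24 ± 0.77 (SE, 2 and 3 lines, adjusted p = 0.712). Its second probe gave 0.31, so the 2 probes disagree on the direction, and their mean gave −0.96. In the same comparison Peg3, a paternally expressed zinc finger gene, was −0.98 and 0.12 in BC_2 OSKM and Nanog-GFP SNEL#3, against −1.38, −1.21 and −1.92 in the ESC lines. The difference was 1.08 ± 0.60 (SE, adjusted p = 0.943), 1.39 with its second probe, 0.53 without Nanog-GFP SNEL#3 and 1.63 without BC_2 OSKM. Peg3 was lowest of all in KH2_OSKM, at −2.29. Usp29, its neighbour on the other strand, ran from −5.92 to −3.72.

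Of the remaining genes, Igf2r, the receptor that takes up and degrades IGF2, was lowest in KH2 ESCs (1.57) and highest in KH2_OSKM (3.01), while Airn, the antisense RNA that silences it on the paternal copy, ran from −2.71 to −1.83. Grb10, an adaptor that dampens insulin signalling, was −0.42 in BC_2 OSKM, −2.84 in KH2_OSKM and between −1.94 and −1.02 elsewhere. Plagl1, a zinc finger factor known to act on other imprinted genes, was lowest in Nanog-GFP ESCs (2.81) and Nanog-GFP SNEL#3 (3.20) and lay between 3.80 and 4.60 elsewhere. Impact, a regulator of translation, ran from 3.93 to 5.24, and Gnas, which encodes a G protein subunit, from 4.74 to 5.93. Ppp1r9a spanned 1.29, Kcnk9 1.06, Trappc9 0.85, Zrsr1 0.71 and Commd1 0.37, the narrowest range of the 43 genes. Calcr, the calcitonin receptor, was above background on 7 arrays and ran from −6.39 to −4.62.

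Against the grades, no imprinted gene passed limma's threshold in any of the 6 comparisons (adjusted p under 0.05 over 27161 genes). At an unadjusted p under 0.05 stood 2 of 43 genes in high against ESC lines, 4 in good against ESC, 6 in poor against ESC, 4 in all iPSC against ESC, 5 in good and high against poor, and 0 in SNEL against OSKM. The shares of all genes at that unadjusted threshold were 5.89%, 6.25%, 9.75%, 9.34%, 5.16% and 9.39% in the same order. At the adjusted threshold limma called 0% of all genes in the first 5 comparisons and 0.00736% in SNEL against OSKM. A second rule counted genes whose lines did not overlap between the groups and whose means differed by at least 1. It gave no imprinted gene higher and 1 lower in high against ESC lines (1.12% and 1.16% of all genes), which is Igf2. In good against ESC lines it gave 1 higher, Peg3 (1.06%), and 2 lower, Igf2 and Asb4 (1.58%). In poor against ESC lines it gave none higher (2.2%) and 2 lower, H19 and Igf2 (1.08%). In all iPSC against ESC lines it gave none higher (0.309%) and 1 lower, Igf2 (0.276%). In good and high against poor lines it gave 1 higher, H19 (0.092%), and none lower (0.814%). In SNEL against OSKM lines it gave none in either direction (0.265% and 0.854%). Comparisons against ESC share the ESC lines. With 0 to 2 genes in each count, nothing particular to the imprinted genes was read from them.

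The paternally and the maternally expressed genes were also described by their median difference. For high minus ESC the medians were 0.16 over the 19 paternally and 0.09 over the 23 maternally expressed genes, beside −0.07 over all genes. For good minus ESC they were −0.15 and 0.21 (all genes −0.06), and for poor minus ESC 0.17 and −0.13 (−0.03). For all iPSC minus ESC they were 0.09 and −0.05 (−0.04), for good and high minus poor −0.24 and 0.10 (−0.04), and for SNEL minus OSKM −0.18 and 0.18 (−0.02). In good and high against poor lines, 6 of 19 paternally expressed genes had the higher mean in the good and high lines. So did 15 of 23 maternally expressed ones. The same counts were 11 and 12 in high minus ESC, 8 and 17 in good minus ESC and 13 and 9 in poor minus ESC. They were 12 and 11 in all iPSC minus ESC and 8 and 13 in SNEL minus OSKM. Counts over all genes were not made, so no pattern was read from these. The medians are descriptions of differences in log2 units, and neither they nor the counts were given a test. Leaving out 1 line turned the sign of several medians.

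**Figure D5:**
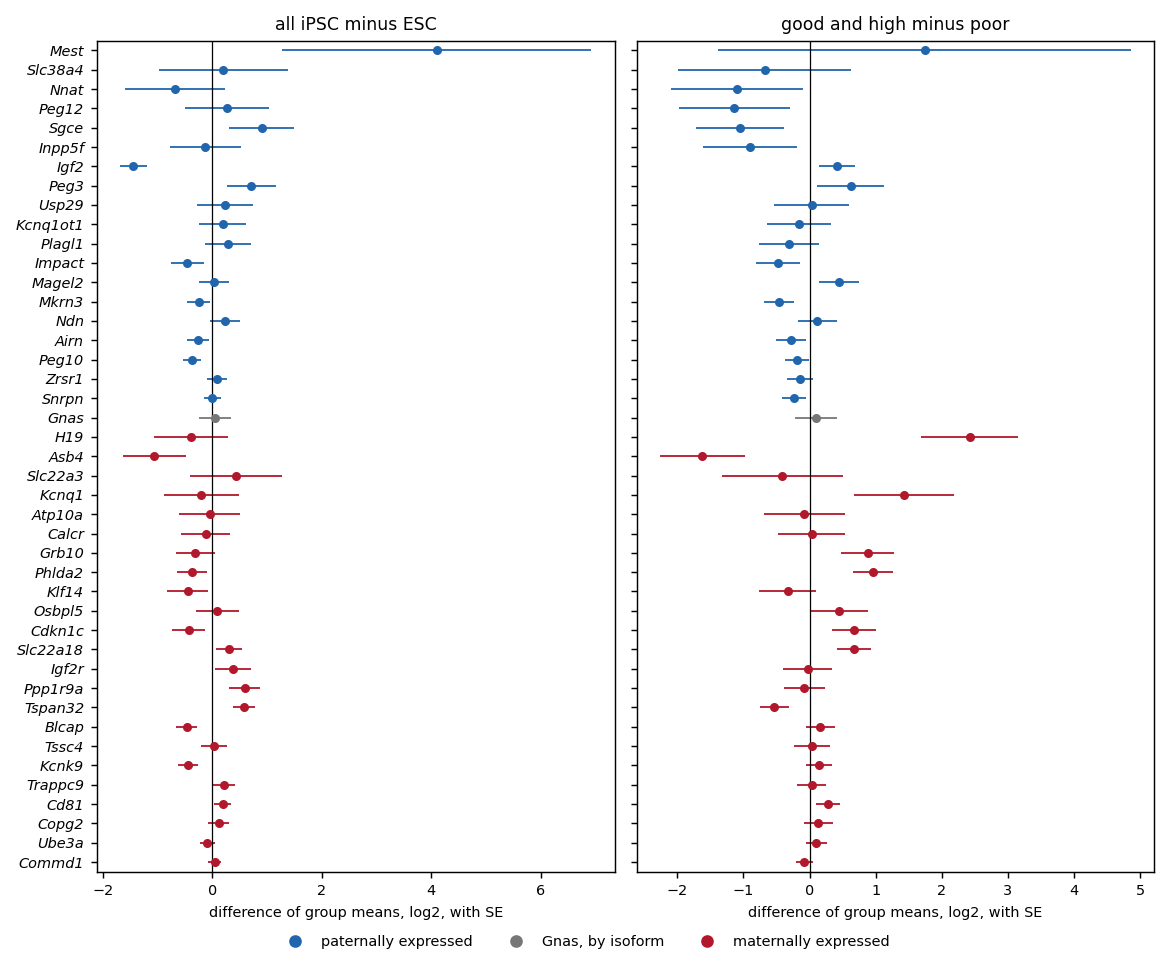
Difference of group means on the log2 scale with its SE for each of the 43 imprinted genes, for all iPSC minus ESC lines (7 and 3 lines) and good and high minus poor lines (4 and 3 lines). None passed limma's adjusted threshold; Igf2 (−1.44 ± 0.24) lies below 0 on the left, H19 (2.42 ± 0.74) above 0 on the right, and Mest has the widest errors.

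Genes that act with or on imprinted genes were counted too. Of 12 genes of the insulin-like growth factor axis (such as Igf1r and Igf2bp1) and 13 keepers of imprints (such as Zfp57, Trim28 and Dnmt1), none passed limma's threshold in any of the 6 comparisons. Their median differences ran from −0.15 to 0.08 for the growth factor axis and from −0.13 to 0.04 for the keepers. Zfp57 lay between 2.37 and 3.20 in all lines. Other keepers moved more than these medians. Dnmt3l was 3.43 and 2.99 in the high lines and 5.17 and 4.94 in the good lines. It was 6.37, 5.23 and 4.72 in the poor lines and 4.01, 3.14 and 4.19 in the ESC lines. Neither the good nor the poor lines overlapped the ESC lines. Good minus ESC was 1.28 ± 0.49 (SE, limma adjusted p = 0.749) and poor minus ESC 1.66 ± 0.44 (adjusted p = 0.259). Of all genes, 2.2% were higher in poor than in ESC lines by at least 1 without overlap. Dppa3 was lower in the same comparison, by −1.86 ± 0.82, with overlap. Of the 13 keepers, 5 were higher and 8 lower there. Dnmt3b ran from 2.20 in BC_2 OSKM to 5.86 in Nanog-GFP OSKM#2. Meg3, the maternally expressed noncoding RNA of the Dlk1-Dio3 locus, was 6.12 and 4.25 in the high lines and 5.86 and 6.73 in the good lines. It was 1.70, 3.22 and 0.32 in the poor lines and 5.10, 5.30 and 4.58 in the ESC lines. Poor minus ESC was −3.25 ± 0.75 for Meg3 (SE, limma adjusted p = 0.209) and −0.25 ± 0.56 for Dlk1 of the same locus (adjusted p = 0.960). The 3 poor lines were the lowest for Meg3 as for H19 and Phlda2, but not for Dlk1. How many of all genes have the poor lines lowest was not counted, so no shared pattern was read.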

How the data were processed

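Per the labels, total RNA from RNeasy columns was hybridized in 1 colour (Cy3). Per the file headers, the deposited scanner files of array design 028005 come from Feature Extraction 10.1.1.1 and give each spot's intensity as a background-subtracted processed signal, with probe coordinates on mm9. The authors' deposited value table holds log2 values with column medians of 6.266 to 6.28 over all its rows, and limma is the tool named in the submitters' processing notes, without a version. How that table was scaled is not given in the sources used here, and it served as an alternative only.

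Outlier-flagged spots were set missing, repeated spots averaged, log2 processed signals scaled by each array's 75th percentile (513 to 914), and probes kept when well above background on at least 4 arrays. The brightest kept probe stood for a gene, and other probes are given for some genes only. Agreement of probes is not implied for the rest. For Airn, another kept probe was lowest in Nanog-GFP ESCs (−5.14), where the probe used gave −2.03. The probes of Gnas also put different lines highest. The 2 arrays of a line were averaged. Limma 3.58.1 (R 4.3.3, packages data.table, version 1.17.8, and statmod, version 1.5.0) fitted the 10 lines with the groups high, good, poor and ESC, and again with SNEL, OSKM and ESC, with Benjamini-Hochberg adjustment over 27161 genes. An F test among lines used the 20 arrays, on 3 slides of 8, 8 and 4. Slide 1 held mostly iPSC arrays and slide 3 mostly ESC arrays, so iPSC against ESC was not balanced over slides. The tests were checked on simulated data. Promoter windows come from RefSeq (GRCm38.p6).

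Named differences are those past the adjusted threshold of 0.05, or without overlap of lines and at least 1 log2 unit, plus the 10 genes with the largest SD over lines. Phlda2, Cdkn1c, Tspan32 and other genes given with a difference outside that rule were chosen after their values were seen. The genes and lists were chosen with earlier results of these data known. Alternatives were the background correction, normalization, filter, probes, slide, replicate number and lines left out.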

Additional observations from a re-analysis of the deposited data

Results flagged for a closer look

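Of 129 sets of 4 or 7 lines tested, 8 held 1 line far from the others. Chance flags about 1 in 20 such sets, so 8 is near that share. The sets overlap, and nothing was read from the number of flags. BC_2 OSKM accounted for 5 of them. Among the 4 OSKM lines it was the highest for H19 (0.21, the next at −3.28) and for Phlda2 (1.23, the next at −0.47). Among the 4 good and high lines it was the highest for Atp10a (−2.02, the next at −4.13). It was the lowest for Inpp5f (−5.40) both there, with the next at −2.74, and among the 7 iPSC lines, with the next at −3.01. Among the OSKM lines, Oct4-GFP OSKM#2 was the lowest for Ppp1r9a (0.34, the next at 1.24). Among the 7 iPSC lines, KH2_OSKM was the lowest for Mest (−6.77, the next at 0.77) and Oct4-GFP SNEL#1 for Commd1 (4.66, the next at 4.88).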

How the results depend on the processing

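The differences named for H19, Igf2, Asb4 and Peg3 kept their sign under the alternatives run on all genes, and missed the adjusted threshold under those that gave a p. Single other probes turned the sign, to 0.31 for Asb4 in good minus ESC and, for H19, to 0.98 in poor minus ESC and −0.19 in good and high minus poor. All iPSC minus ESC for Igf2 ran from −1.70 (without Oct4-GFP ESCs) to −0.30 (normexp), poor minus ESC for H19 from −2.14 (without Oct4-GFP ESCs) to −0.81 (mean of all probes) and good and high minus poor for H19 from 1.61 to 2.80. Counts of all genes called did move. With the 20 arrays fitted and the line as a random block, limma called 8 genes in high, 9 in good and 42 in poor against ESC, 22 in all iPSC against ESC, 6 in good and high against poor and 81 in SNEL against OSKM. With slide as a block as well the counts were 4 in good, 16 in poor and 5 in all iPSC against ESC, 4 in good and high against poor and 11 in SNEL against OSKM. With a replicate block in place of slide they were 5, 25, 19, 5 and 46. Deviations of arrays with the same replicate number correlated at 0.047 on average and those with different numbers at −0.046. Across groups, 19 of 20 arrays correlated best with one of their own number. Replicate number and slide partly coincide, and what the number stands for was not tested.

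For SNEL against OSKM (2 genes called) quantile normalization gave 7, the filter on all 20 arrays and no filter 1 each, and the mean of all probes 0. Leaving out 1 line gave 0 to 336 there, the highest without Oct4-GFP SNEL#1, 0 to 1 in high, 0 to 6 in good, 0 to 2 in poor and 0 to 5 in all iPSC against ESC, and 0 to 1 in good and high against poor. Imprinted genes with an SD over lines above 1 numbered 10 of 43 (6.79% of all genes), and 8 to 10 with 1 line left out. With normexp 3 of 43 were above 1 (1.64% of all genes), and by the authors' values 4 of 43 (2.44%). The filter on all 20 arrays kept 30 imprinted genes, of which 4 were above 1 (2.86% of all genes). The mean of all probes gave 7 of 43 (6.6%) and quantile normalization 10 of 43 (7.01%). These counts were added after seeing the data.

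The median over paternally expressed genes in good minus ESC (−0.15) was 0 with normexp. With 1 line left out it ran from −0.21 to 0.05, in high minus ESC from −0.27 to 0.35, and over maternally expressed genes from −0.07 to 0.36 in good minus ESC, −0.07 to 0.09 in high minus ESC, −0.12 to 0.15 in all iPSC minus ESC and 0.00 to 0.18 in SNEL minus OSKM. Dim genes (Igf2, Slc22a3, Calcr, Klf14) have levels bounded by background.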
